A study of Mus musculus with 3 samples.

Results

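Glial progenitor nuclei marked by Gfap and Aqp4 were described in differentiated neurosphere cultures from the subventricular zone (SVZ) that had lost either CBP or p300. A nucleus was counted as a member when it held at least 3 unique molecular identifiers (UMIs) of Gfap and Aqp4 together, fewer than 4 of the radial glia genes Pde1a, Anxa3, Col8a1 and Lrp2, fewer than 3 of the astrocyte genes Slc7a11, Slc6a11 and Atp13a4, fewer than 3 of the cell cycle genes Top2a, Mki67, Kif11 and Knl1, and fewer than 4 of the myelin genes Mog, Mag, Mobp and Ermn. By this rule 1034 of 12549 nuclei were members. Of these, 267 lay among the 4884 control nuclei, 337 among the 3017 CBP-ablated nuclei and 430 among the 4648 p300-ablated nuclei.

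Each condition is 1 library of single-nucleus RNA, made from about 15 cultures pooled after 15 days in vitro (DIV), so no test between conditions was possible and none was made. Neural stem cells came from the SVZ of P0 to P3 pups of the C57BL/6 background with both alleles of Crebbp (labelled CBPf/f) or Ep300 (labelled p300f/f) flanked by loxP sites. They received a lentivirus with Cre recombinase fused to mCherry, or a red fluorescent protein as control, were sorted by fluorescence, grown as clonal neurospheres and then left to differentiate. The labels give tamoxifen as the treatment of all 3 samples, which the study's methods do not mention, and the floxed line behind the control library is not given in the sources used here. Intervals below are 95% intervals that cover the counting of UMIs or nuclei and not the variation between cultures. A pool of cultures cannot tell fewer cells of one kind from poorer recovery of their nuclei.

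Gfap encodes the intermediate filament protein of astrocytes and of the neural stem cells of the SVZ, and Aqp4 encodes the water channel that astrocytes concentrate in the endfeet that touch vessels. In the postnatal SVZ, stem cells, glial progenitors and astrocytes share many genes, so no single transcript separates them. CBP and p300 are paralogous lysine acetyltransferases that act as coactivators for CREB, for STAT3 and SMAD factors of the astroglial pathways, and for many other transcription factors.

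The members were a larger share of the nuclei in both ablated libraries. The control share was 5.47% (4.85% to 6.14%). The CBP-ablated share of 11.2% (10.1% to 12.3%) lay 5.70 percentage points above it (4.43 to 7.02, Newcombe interval), and the p300-ablated share of 9.25% (8.43% to 10.1%) lay 3.78 points above it (2.74 to 4.84). Nuclei of the astrocyte class (at least 3 UMIs of Slc7a11, Slc6a11 and Atp13a4 with the other 3 sums below their limits) numbered 958 for control but 10 for CBP-ablated and 16 for p300-ablated cultures. Among nuclei outside that class the members were 6.80%, 11.2% and 9.28%, a difference of 4.41 points (3.05 to 5.80) for CBP and 2.48 points (1.33 to 3.63) for p300.

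Depth moved with this share. The median control nucleus held 3219 UMIs, the median CBP-ablated nucleus 4016 and the median p300-ablated nucleus 3902.5, and a fixed UMI limit is passed more easily by a deeper nucleus. After every nucleus was thinned to 1500 UMIs, which left out 248, 95 and 135 shallower nuclei, the rule held for 2.96% (2.49% to 3.48%), 6.74% (5.86% to 7.71%) and 4.37% (3.79% to 5.00%). The order of the libraries stayed as it was, and the gap to control was 3.79 points (2.78 to 4.85) for CBP and 1.41 points (0.642 to 2.19) for p300.

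**Figure D1:**
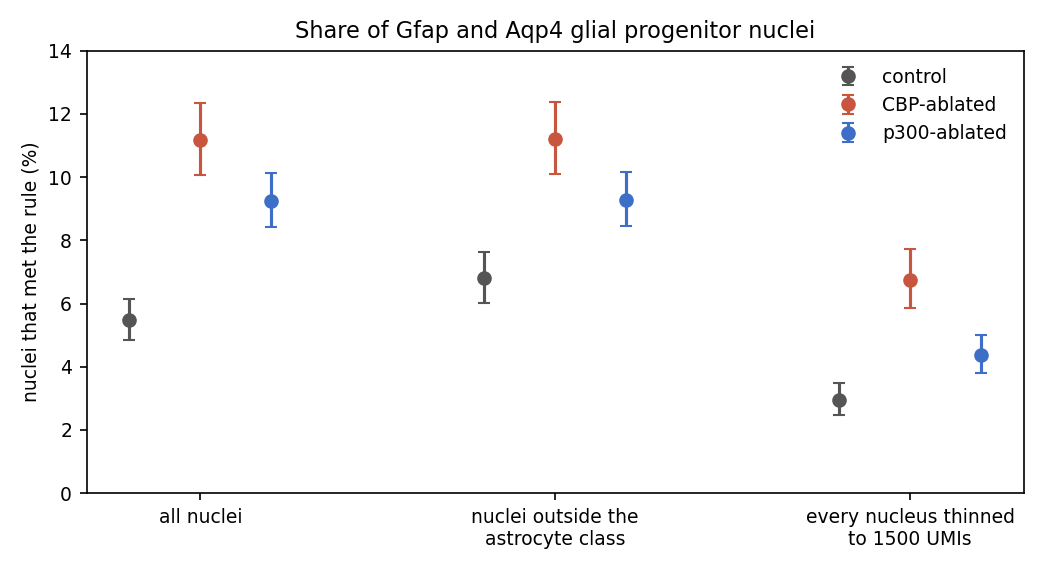
Share of nuclei that met the rule (percent, vertical axis) in each library, among all nuclei, among nuclei outside the astrocyte class, and after every nucleus was thinned to 1500 UMIs. Bars are exact 95% binomial intervals, and the control library is lowest in all 3 panels of points.

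The limits of the rule removed different nuclei in the 3 libraries. Before the exclusions, 366 control, 391 CBP-ablated and 492 p300-ablated nuclei held at least 3 UMIs of Gfap and Aqp4. The astrocyte limit alone removed 60 of these in the control library but 6 and 4 in the ablated libraries, whereas the radial glia limit alone removed 35, 39 and 57. Nuclei with exactly 3 UMIs of Gfap and Aqp4, just inside the rule, numbered 68, 56 and 107, and nuclei with 2, just outside it, numbered 129, 79 and 159. The nuclei just inside held 2262, 1607 and 2364 counts per 1000000 UMIs (CPM) of Mgat5 and those just outside 1555, 1162 and 1300 CPM.

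Member nuclei summed to 890290 UMIs (control), 1311024 (CBP-ablated) and 1689681 (p300-ablated), with medians of 3272, 3686 and 3815.5 UMIs per nucleus. All levels below are CPM of UMIs summed over the nuclei named. The libraries shared 3 cell barcodes (control and CBP-ablated), 7 (control and p300-ablated) and 1 (CBP-ablated and p300-ablated), and 1 barcode was a member in both the control and the p300-ablated library.

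Gfap, on the minus strand of chromosome 11 (chr11:102887336-102900912, GRCm38), had 855 CPM in control, 1127 CPM in CBP-ablated and 763 CPM in p300-ablated members. All other nuclei of the same libraries held 39.4, 40.5 and 20.2 CPM of Gfap. Aqp4 was nearly level over the libraries at 841, 817 and 814 CPM, against 71.3, 45.2 and 55.8 CPM in all other nuclei. The 2 genes chose the members, so these levels are a description only. Gfap was highest in CBP-ablated members.

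Most members held both transcripts. Nuclei with both were 61.8%, 73.6% and 55.1% of the members, in the order control, CBP-ablated and p300-ablated that is kept below, nuclei with Aqp4 but no Gfap UMI were 27.3%, 16.3% and 32.8%, and nuclei with Gfap but no Aqp4 UMI were 10.9%, 10.1% and 12.1%. The Gfap-only nuclei differed from the Aqp4-only nuclei in Slc39a12, which encodes a zinc importer of the plasma membrane. Slc39a12 had 260, 460 and 519 CPM in Gfap-only members and 1004, 1189 and 1365 CPM in Aqp4-only members, and the intervals of these 2 kinds of nuclei did not overlap in any library.

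Slc1a2, the main glutamate transporter of mature astrocytes, went the other way. It had 1039 CPM (841 to 1268), 444 CPM (333 to 579) and 281 CPM (214 to 363) in Gfap-only members and 338 CPM (267 to 421), 153 CPM (105 to 215) and 202 CPM (166 to 244) in Aqp4-only members. The intervals were apart in the control and CBP-ablated libraries and overlapped in the p300-ablated library. The Gfap-only groups were small, with 29, 34 and 52 nuclei, and the grouping used 2 genes of the rule.

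The label names 4 further markers, all chosen earlier from these same nuclei: Mgat5 (chr1:127205015-127488336), an enzyme that adds a branch to N-glycans; Ggta1 (chr2:35400179-35463231), an alpha-galactosyltransferase; Slc39a12 (chr2:14388316-14494977); and Cfap44 (chr16:44394796-44482428), a protein of the motile cilium. All 4 were at least 2-fold above all other nuclei in each of the 3 libraries. Mgat5 had 2437, 1805 and 2627 CPM in members against 438, 369 and 488 CPM in all other nuclei, and Ggta1 had 175, 153 and 141 CPM against 18.6, 12.2 and 16.5 CPM.

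Not every marker separated the members from each neighbouring class. Slc39a12 had 963, 976 and 1048 CPM in members and nearly as much, 829, 787 and 823 CPM, in radial glia-like nuclei (at least 4 UMIs of Pde1a, Anxa3, Col8a1 and Lrp2, with the other 3 sums below their limits). Cfap44 had 91.0, 139 and 189 CPM in members and 79.2, 67.2 and 77.2 CPM in radial glia-like nuclei, close in the control library and more than 2-fold apart in the others. Ggta1 was the single one of the 4 markers that was at least 2-fold above radial glia-like nuclei in all 3 libraries.

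Mgat5 and Ggta1 were also found in microglia, the immune cells of the brain. In nuclei thinned to 1500 UMIs, Mgat5 was detected in 84.4%, 76.2% and 85.2% of members, in 75.5%, 85.0% and 85.7% of the microglia class and in 20.4%, 21.9% and 20.01% of oligodendrocyte precursor (OPC) nuclei. Ggta1 was detected in 20.5%, 16.7% and 15.5% of members, in 26.4%, 40.0% and 28.6% of the microglia class and in 0.574%, 0.258% and 0.473% of OPC nuclei. The microglia class had only 53, 20 and 21 nuclei of that depth. The members themselves were low in microglial genes: 8 microglial markers summed to 31.5, 25.9 and 33.7 CPM against 135, 79.3 and 69.4 CPM in all other nuclei, with 4, 7 and 7 of the 8 detected. P2ry12, Fyb and Cx3cr1 were the most abundant in the respective libraries, and Csf1r was at 0 UMIs in control and p300-ablated members.

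**Figure D2:**
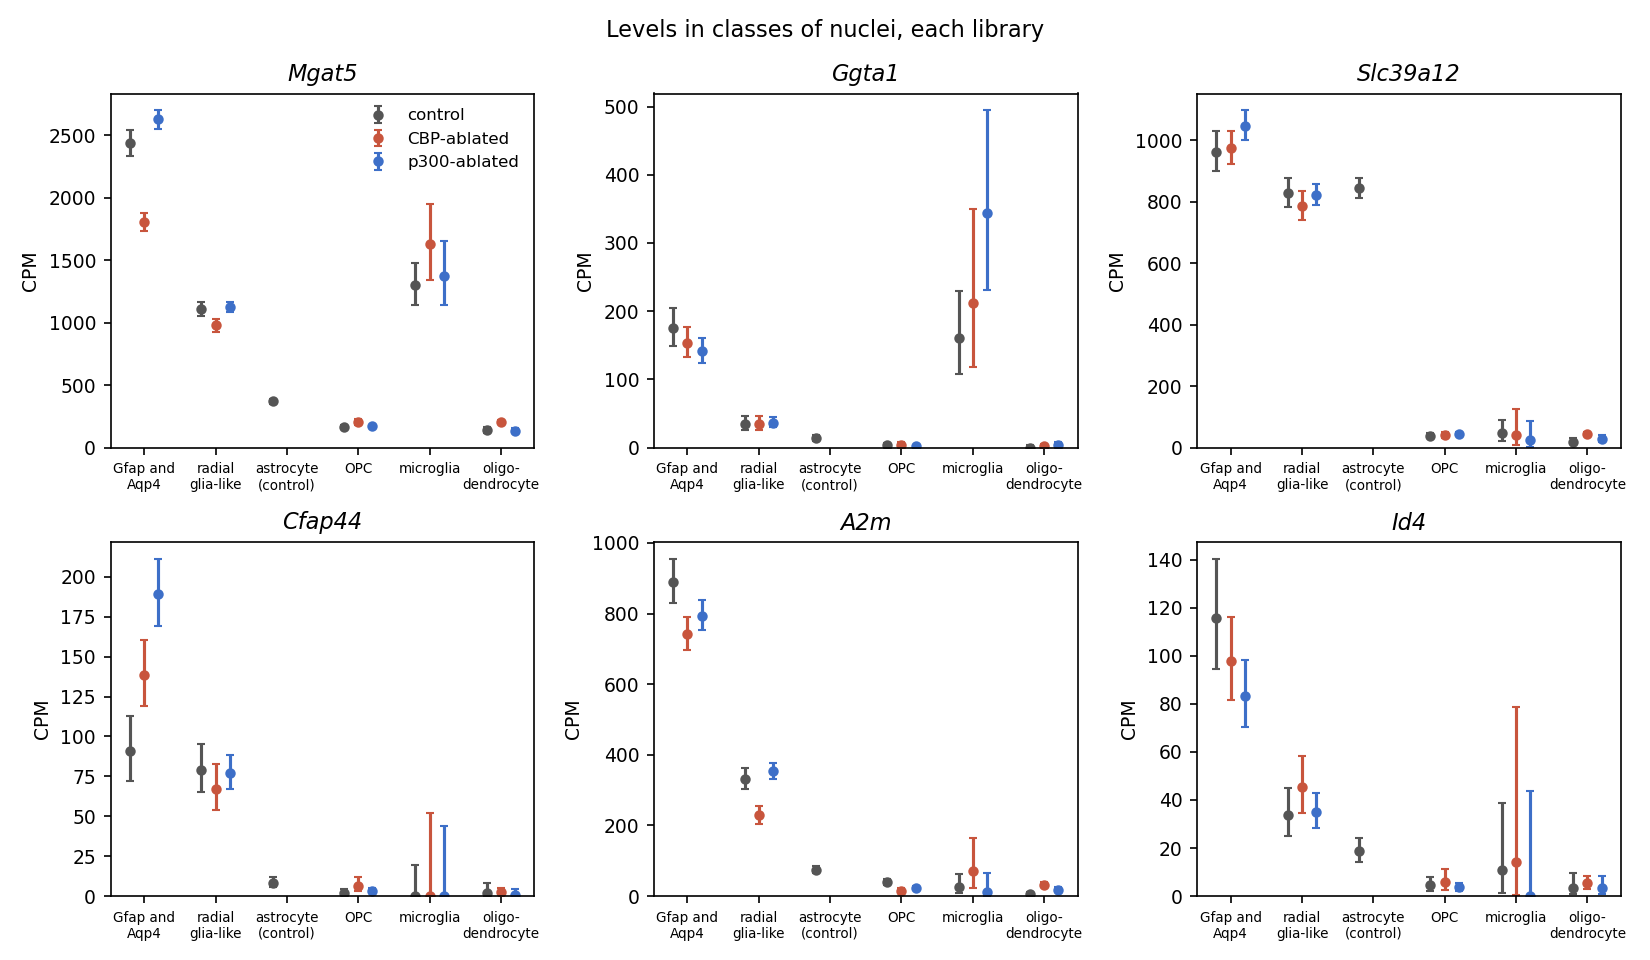
Level (CPM, vertical axes) of 6 genes in members and in 5 other classes of nuclei, by library, with exact 95% Poisson intervals. The astrocyte class is shown for control only. Slc39a12 is close in members, radial glia-like nuclei and the control astrocyte class, Mgat5 and Ggta1 are also present in microglia, and A2m and Id4 are highest in members among the classes shown.

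Outside the rule, 5750 genes had at least 100 UMIs in members, and 408 of them (7.10%) were at least 2-fold above all other nuclei in every library while 211 (3.67%) were at least 2-fold below. Against radial glia-like nuclei 165 genes (2.87%) were above and 122 (2.12%) below in every library. The rule chose the nuclei from this same contrast, so the shares describe the class and test nothing. The 15 leading genes, ranked by the lowest of the 3 log2 ratios against all other nuclei, were Ntsr2, Sntg2, Ggta1, Tagln3, Lgi4, Adamts16, Sctr, P4ha3, Rhpn2, Papss2, Ccbe1, Slc22a4, A2m, Sel1l3 and Ccdc148. All 15 were also at least 2-fold above radial glia-like nuclei in every library.

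Ntsr2, the low-affinity neurotensin receptor that is known in astrocytes, had 38.2, 25.2 and 53.3 CPM in members against 3.24, 1.31 and 3.84 CPM in all other nuclei. It was a scarce transcript, with 34, 33 and 90 UMIs in all. A2m, the secreted protease inhibitor alpha-2-macroglobulin, was read more deeply at 891, 743 and 794 CPM against 109, 73.8 and 139 CPM. Sctr, the secretin receptor, had 43.8, 46.5 and 71.6 CPM, Lgi4, a secreted protein known from glial cells of the peripheral nerve, 14.6, 34.3 and 24.9 CPM, and Slc22a4, a carrier of ergothioneine and carnitine, 147, 172 and 230 CPM. The remaining leading genes ranged from 31.5 to 366 CPM in members.

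Of 16 astrocyte genes outside the rule with at least 100 UMIs, 3 were at least 2-fold above all other nuclei in every library: Gja1 (connexin 43, the gap junction protein of astrocytes), Sox9 (a gliogenic transcription factor) and Ntsr2. The share of all 5750 genes was 7.10% above and 3.67% below. These shares stand behind each list count above or below all other nuclei that follows. Gja1 had 279, 315 and 344 CPM against 89.2, 25.3 and 26.9 CPM. The median log2 ratio of the 16 genes was 0.71 in the control library, where 958 of the other nuclei were of the astrocyte class, against 2.23 and 1.42 in the libraries that nearly lacked that class. S100b, a marker of mature astrocytes, was scarce in members at 16.8, 12.97 and 9.47 CPM and no higher than in all other nuclei (21.2, 30.6 and 15.6 CPM).

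Of 14 measured genes of neural stem cells and radial glia, 5 were at least 2-fold above all other nuclei in every library and none below. They were Vim (vimentin), Notch2, Cd44 and the BMP-responsive inhibitors Id3 and Id4. Id4 had 116, 97.6 and 83.4 CPM in members against 16.3, 13.99 and 14.8 CPM. Of these 5 genes, Id4 alone was also at least 2-fold above radial glia-like nuclei in every library. Nestin (Nes), the classical filament of neural stem cells, had 19.1, 24.4 and 24.3 CPM in members but 72.7, 92.8 and 111 CPM in radial glia-like nuclei, and Thbs4 was at 0 UMIs in the members of all 3 libraries. Whether the members divide cannot be read from these data, since the rule kept out nuclei with 3 or more UMIs of its cell cycle genes. Of the nuclei with at least 3 UMIs of Gfap and Aqp4, this limit alone removed 2 control, 1 CBP-ablated and 0 p300-ablated nuclei. The name progenitor rests on the label.

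Apart from the markers of the class, genes of the motile cilium were above all other nuclei more often than any other list. Of 33 listed genes 15 had at least 100 UMIs in members, and 14 of these were at least 2-fold above all other nuclei in every library. Rfx3, a transcription factor of ciliated cells, had 608, 491 and 666 CPM against 259, 214 and 200 CPM. Only Rfx3 and Dnah5, an outer arm dynein, were also 2-fold above radial glia-like nuclei. Defining genes of multiciliated ependymal cells were rare or absent: Foxj1 had 10.1, 12.2 and 16.0 CPM, Tmem212 was at 0 UMIs in all members, and Mcidas and Ccno were at 0 in control and p300-ablated members.

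Further lists gave smaller counts, some of which include Mgat5, Ggta1 or Slc39a12, markers chosen earlier from these same nuclei. Of 9 measured genes of the endfoot and water channel complex outside the rule, 2 were 2-fold above in every library: Sntb1, a syntrophin of the dystrophin-associated complex, and Lama2, a laminin of the basement membrane. Of 7 measured reactive astrocyte genes 5 were above (Vim, S1pr3, Osmr, Ggta1 and Cd109). Lcn2, a gene strongly induced in reactive astrocytes, was at 0 UMIs in the members of every library. Against radial glia-like nuclei only Ggta1 was 2-fold above in every library, and Cp was 2-fold below. All 26 listed reactive genes summed to 745, 633 and 932 CPM in members and 1450, 1188 and 1634 CPM in radial glia-like nuclei. Cp was the most abundant there. Vim had 182 and 265 CPM in CBP-ablated and p300-ablated members and 309 and 320 CPM in radial glia-like nuclei of those libraries. Of 13 measured zinc genes 4 were above: Slc39a12 and the metallothioneins Mt1, Mt2 and Mt3. Of 11 genes of N-glycan branching 3 were above (Mgat5, Man1c1 and Ggta1), and of 3 measured filament genes outside the rule, Vim alone was.

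Of 24 measured genes of LIF-STAT3 and BMP-SMAD signalling, which drive astroglial fate, 7 were at least 2-fold above in every library. They included the BMP receptor Bmpr1b (562, 466 and 441 CPM in members against 238, 61.9 and 87.3 CPM) and Il6st, the shared receptor subunit gp130 (158, 114 and 130 CPM against 53.2, 37.7 and 44.4 CPM). Bmpr1b was not particular to members, since the control astrocyte class held 566 CPM of it. The 2 ablated libraries nearly lacked that class among their other nuclei. Of 11 measured gliogenic transcription factors, Sox9, Rfx4, Pax6 and Glis3 were above and Etv5 was below. Of OPC genes, 5 of 5 measured were below.

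**Figure D3:**
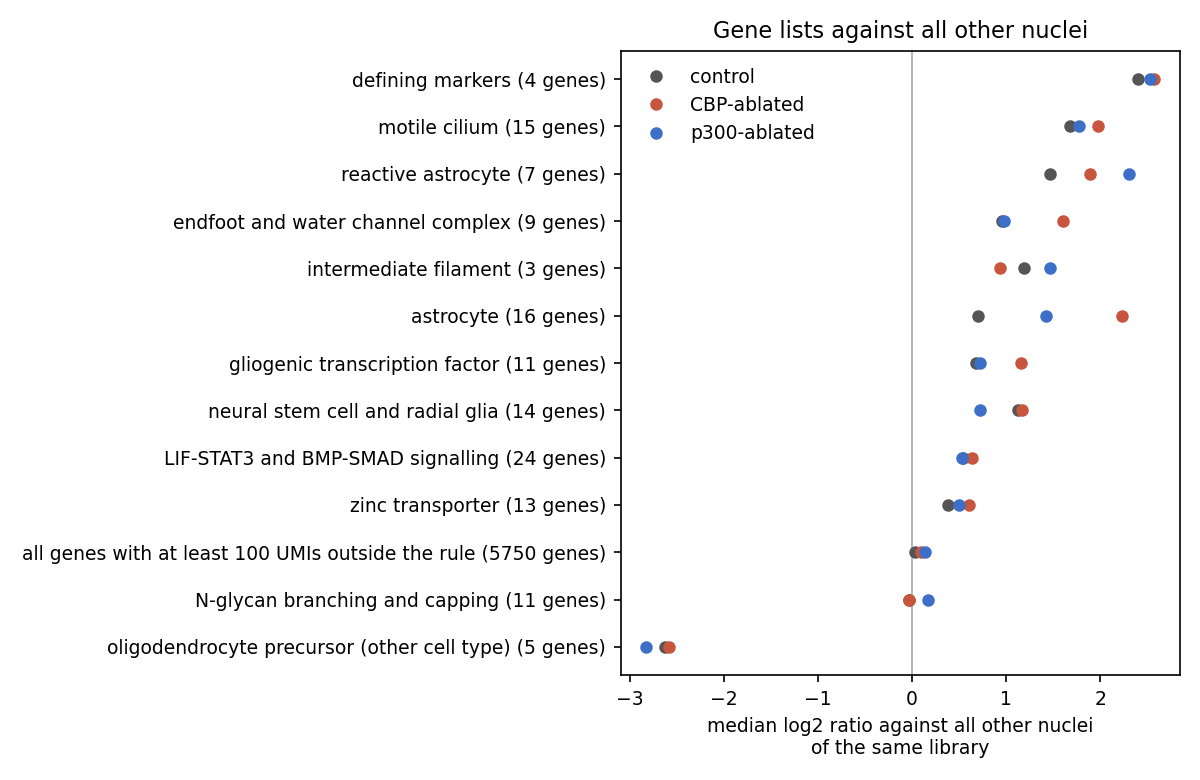
Median log2 ratio of CPM (1 CPM added to each side, horizontal axis) of members against all other nuclei of the same library, for each gene list with at least 3 measured genes outside the rule. Dots are libraries. Motile cilium genes have medians of 1.68 to 1.97, the reactive list is above them in the p300-ablated and the astrocyte list in the CBP-ablated library, OPC genes lie below, and all 5750 genes lie near 0.

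Crebbp had 352 CPM in control, 447 CPM in CBP-ablated and 470 CPM in p300-ablated members, and Ep300 had 96.6, 125 and 127 CPM. Neither floxed gene was lower in the members of its ablated library: the log2 ratio to control was 0.35 (0.15 to 0.55) for Crebbp in the CBP-ablated and 0.39 (0.02 to 0.77) for Ep300 in the p300-ablated library. Reads over introns as well as exons were counted, so these whole-gene levels include unspliced RNA and show neither the loss of a floxed exon nor that of the mature transcript. They do not check the ablation, and the genotype of each library is taken from its label.

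Gpc5, a glypican that is abundant in astrocytes, was far lower in CBP-ablated members, and Mbp, the myelin basic protein, was higher. Among 3922 genes with at least 100 UMIs in members of the 2 libraries together, 46 (1.17%) were at least 2-fold higher and 41 (1.05%) at least 2-fold lower, 87 (2.22%) in all, and the median log2 ratio was 0.08. Scaled by median-of-ratios size factors, 31 were higher and 57 lower. With 1 library a condition these are counts past a fold, not counts of tested changes.

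Gpc5 had 1923 CPM in control and 397 CPM in CBP-ablated members, a log2 ratio of −2.28 (−2.42 to −2.14). It was also lower in all other nuclei (−3.65), in radial glia-like nuclei (−2.35) and in OPC nuclei (−2.13), so the lower level was not limited to members. All other nuclei included 958 of the astrocyte class in control, with 6243 CPM of Gpc5, and 10 in CBP-ablated cultures. Other genes that were lower are Ndst3, a heparan sulfate sulfotransferase (−2.33, −2.96 to −1.74), Ddit4l (−1.53), the ion channel gene Trpm3 (−1.38), Ldb2 (−1.43), the adenylate cyclase Adcy2 (−1.47) and the sulfatase Sulf1 (−1.38). Cit, Sgcd and Rgs7 complete the 10, and all 10 had a ratio below 0 in all other nuclei too.

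Mbp had 40.4 CPM in control and 124 CPM in CBP-ablated members, a log2 ratio of 1.61 (1.08 to 2.18). The same ratio was 2.32 in all other nuclei, 2.21 in radial glia-like and 2.20 in OPC nuclei. St18, a zinc finger transcription factor, had 35.9 and 137 CPM in members (1.93, 1.39 to 2.52), and 1.61 in all other nuclei. A list of 10 oligodendrocyte genes summed to 111, 311 and 81.1 CPM in members, with 9, 10 and 9 of the 10 detected, Ermn at 0 in control and p300-ablated members, and Mbp (Ugt8a in p300-ablated members) the most abundant. The rule itself limited Mog, Mag, Mobp and Ermn in members. All other nuclei held 780, 3395 and 922 CPM of the same genes, and the part of RNA from oligodendrocytes in the members' values was not tested.

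For some of the genes at the upper end, a few nuclei held a large part of the UMIs. Dcc, a netrin receptor, had 113 UMIs in control and 467 in CBP-ablated members (log2 ratio 1.49, 1.19 to 1.80), but 10 of the 337 CBP-ablated nuclei held 56.7% of them and 1 nucleus held 121. For Tenm2 (118 UMIs in CBP-ablated against 20 in control members) 10 nuclei held 83.1% of its CBP-ablated UMIs, for Synpr 58.6%, for Nuak2 50.8%, for Lmx1a 50.5%, for St18 47.2% and for Grm7 44.1%. In control members, with fewer UMIs of each gene, 10 nuclei held 75.0%, 66.7%, 69.6%, 69.6%, 56.25% and 54.1%, in the same order. A larger share of CBP-ablated than of control members held a UMI of each. For St18 it was 27.0% against 8.99%, and for Grm7 38.0% against 16.5%. Nuak2, Grm7, Asxl3, Nalcn, Lmx1a and Synpr complete the 10, with log2 ratios of 1.33 to 1.82.

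Among lists of glial genes few members were past 2-fold, and the share of all 3922 genes was also low, at 2.22%. The counts are therefore not read as a result about these lists. The 4 markers of the class outside the rule ranged from −0.43 for Mgat5 to 0.61 for Cfap44. No ranked gene of the stem cell, reactive, cilium, N-glycan, zinc, LIF and BMP, or gliogenic factor lists was past 2-fold, and their medians ran from −0.28 (stem cell, 11 genes) to 0.11 (zinc, 10 genes), against 0.08 for all genes. Of 15 astrocyte genes Gpc5 was past 2-fold, and the list median was −0.13. The ratio of Slc39a12 in members was 0.02 (−0.11 to 0.15), whereas in all other nuclei, of which the astrocyte class was 958 in control and 10 in CBP-ablated cultures, it was −1.14.

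The immediate early genes Fos, Fosb, Egr1 and Jun and genes such as Dgkg, Dlg2 and Matn2 were higher in p300-ablated members, and Gpc5 was lower. Among 4378 genes, 37 (0.845%) were at least 2-fold higher and 15 (0.343%) at least 2-fold lower, 52 (1.19%) in all, with a median log2 ratio of 0.09. Size factors gave 25 higher and 23 lower. This comparison uses the same control library as the one above, so the values of both stand side by side and are not independent.

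Immediate early genes are transcribed within minutes of a stimulus, and the promoters of these 4 are known targets of CREB and other factors that recruit CBP and p300. Fos had 66.3 CPM in control, 33.6 CPM in CBP-ablated and 214 CPM in p300-ablated members. The log2 ratio of p300-ablated to control members was 1.69 (1.29 to 2.11) for Fos, 2.79 (1.81 to 3.95) for Egr1, 1.67 (1.22 to 2.15) for Jun and 2.55 (1.66 to 3.59) for Fosb. In all other nuclei the same ratios were 0.97, 1.33, 0.28 and 2.49.

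The 100 bases before the start of transcription are shown for the 3 of these genes with an entry in the RefSeq promoter table of GRCm38.p6, since CREB binds the cyclic AMP response element. Capitals mark the core TGACG of that element, which was searched on both strands. The windows are chr12:85473790-85473889 (plus strand) for Fos, chr7:19310046-19310145 (minus strand) for Fosb and chr4:95052223-95052322 (minus strand) for Jun.
Fos: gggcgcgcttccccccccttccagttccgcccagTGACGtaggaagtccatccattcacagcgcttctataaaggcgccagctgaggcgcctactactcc
Fosb: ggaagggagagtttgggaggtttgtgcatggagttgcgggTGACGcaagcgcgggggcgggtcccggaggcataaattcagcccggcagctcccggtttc
Jun: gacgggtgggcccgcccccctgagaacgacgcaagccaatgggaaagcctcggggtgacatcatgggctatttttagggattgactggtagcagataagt
The core begins 66 bases before the start in Fos and 60 bases before it in Fosb, and these letters are not in the window of Jun. Of 32851 promoter windows of this length, 3442 (10.5%) held the core, so a match is common and is given as a description of the sequence.

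The immediate early transcripts were concentrated in a minority of nuclei. At least 3 UMIs of the 4 genes together were found in 12 of 267 control members (4.49%, 2.34% to 7.72%), 12 of 337 CBP-ablated members (3.56%, 1.85% to 6.14%) and 69 of 430 p300-ablated members (16.0%, 12.7% to 19.9%). All other nuclei of the same libraries reached 1.91%, 2.05% and 5.50%, radial glia-like nuclei 3.24%, 4.62% and 6.32%, and OPC nuclei 0.999%, 1.55% and 5.23%. Nuclei of the oligodendrocyte class reached 1.78%, 2.18% and 9.14% (18 of 197 in the p300-ablated library, 5.51% to 14.1%). The astrocyte class reached 3.55% in control, 0 of 10 in CBP-ablated and 2 of 16 in p300-ablated cultures (12.5%, 1.55% to 38.3%). Both p300-ablated intervals overlapped that of the members. After thinning to 1500 UMIs the members reached 1.52% in the control and 10.8% in the p300-ablated library, and 0 of 336 in the CBP-ablated library, which allows a share of up to 0.893% on a floor of 3 counts and up to 1.09% by the Clopper-Pearson interval. All other nuclei then reached 0.320%, 0.232% and 1.37%. The mitochondrial share of UMIs was 0.0239% in p300-ablated members and 0.00522% in the other nuclei of that library, but close in the control (0.0106% and 0.0109%) and CBP-ablated libraries (0.00801% and 0.00806%), and its part in the difference was not tested.

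Dgkg, a diacylglycerol kinase, had the largest ratio of p300-ablated to control members, 2.89 (2.18 to 3.69), at 19.1 and 141 CPM, while its ratio in all other nuclei was 0.20 (−0.16 to 0.56). Matn2, a matrix protein of the matrilin family, had 97.7 and 290 CPM (1.57, 1.24 to 1.92), Papss2, which makes the donor for sulfation, 31.5 and 107 CPM (1.77, 1.19 to 2.40), Dlg2, a scaffold protein of synapses, 152 and 623 CPM (2.04, 1.78 to 2.31), and Nfkbiz, an inducible regulator of NF-kappaB, 22.5 and 75.2 CPM (1.74, 1.06 to 2.50). Nrg3, a neuregulin, was at 1.36. For Papss2 10 of the 430 nuclei held 56.9% of the UMIs and 1 nucleus 31 of 181, and for Nrg3 10 nuclei held 50.0%.

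The levels of Dgkg, Dlg2, Nfkbiz, Matn2 and Papss2 were higher in the 69 p300-ablated members with at least 3 immediate early UMIs. Not all UMIs of these genes lay in those nuclei. These nuclei held 169 of the 239 UMIs of Dgkg, 541 of 1052 of Dlg2, 81 of 127 of Nfkbiz, 232 of 490 of Matn2 and 81 of 181 of Papss2. Dgkg had 548 CPM in these 69 nuclei and 45.5 CPM in the 288 nuclei with none. Dlg2 had 1755 CPM against 372 CPM, Matn2 753 against 214 CPM, Papss2 263 against 84.6 CPM, Vim 526 against 202 CPM and Gfap 1499 against 581 CPM, each in that order. The 73 nuclei with 1 or 2 such UMIs did not share these levels, with 68.8 CPM of Dgkg, 364 CPM of Dlg2, 91.8 CPM of Matn2 and 29.5 CPM of Papss2, the last 3 below those of nuclei with none. Aqp4 and Gpc5 were lower in the 69 nuclei than in those with none: Aqp4 had 519 CPM against 889 CPM, and Gpc5 360 CPM against 872 CPM. Slc39a12 (526 against 1222 CPM) and A2m (373 against 931 CPM) were lower too. Mgat5 (2897 against 2595 CPM) and Slc1a3 (1460 against 1146 CPM) were not lower. Gfap and Aqp4 chose the members by their sum, so a nucleus high in one could enter with little of the other. Their Spearman correlation over members was −0.47 in control, −0.28 in CBP-ablated and −0.39 in p300-ablated members. The opposite levels of these 2 genes are therefore a description only.

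The 12 such nuclei of the control library, with 46071 UMIs in all, are too few for a comparison of that kind. They held 1 UMI of Dgkg and 6 of Dlg2, and against control members with no immediate early UMI they had 239 and 149 CPM of Vim, 695 and 872 CPM of Aqp4, 651 and 784 CPM of Gfap and 1715 and 1969 CPM of Gpc5. The 12 of the CBP-ablated library held 1 UMI of Dgkg and had 208 CPM of Gpc5 and 2306 CPM of Gfap. Mitochondrial transcripts, a sign of cytoplasm carried along, were 0.0581% of UMIs in the 69 nuclei and 0.0142% in the 288, the median nucleus held 4084 and 3659 UMIs, and the part of either in these differences was not tested. Since the 69 nuclei were picked by 4 of the genes compared, the contrast within the library is a description.

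Without the nuclei of at least 3 immediate early UMIs, an alternative chosen after the data were seen, 31 genes in place of 52 were past 2-fold in p300-ablated members. The log2 ratio of Dgkg was then 1.42, Dlg2 1.28, Papss2 1.13, Matn2 0.87 and Nfkbiz 0.81.

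**Figure D4:**
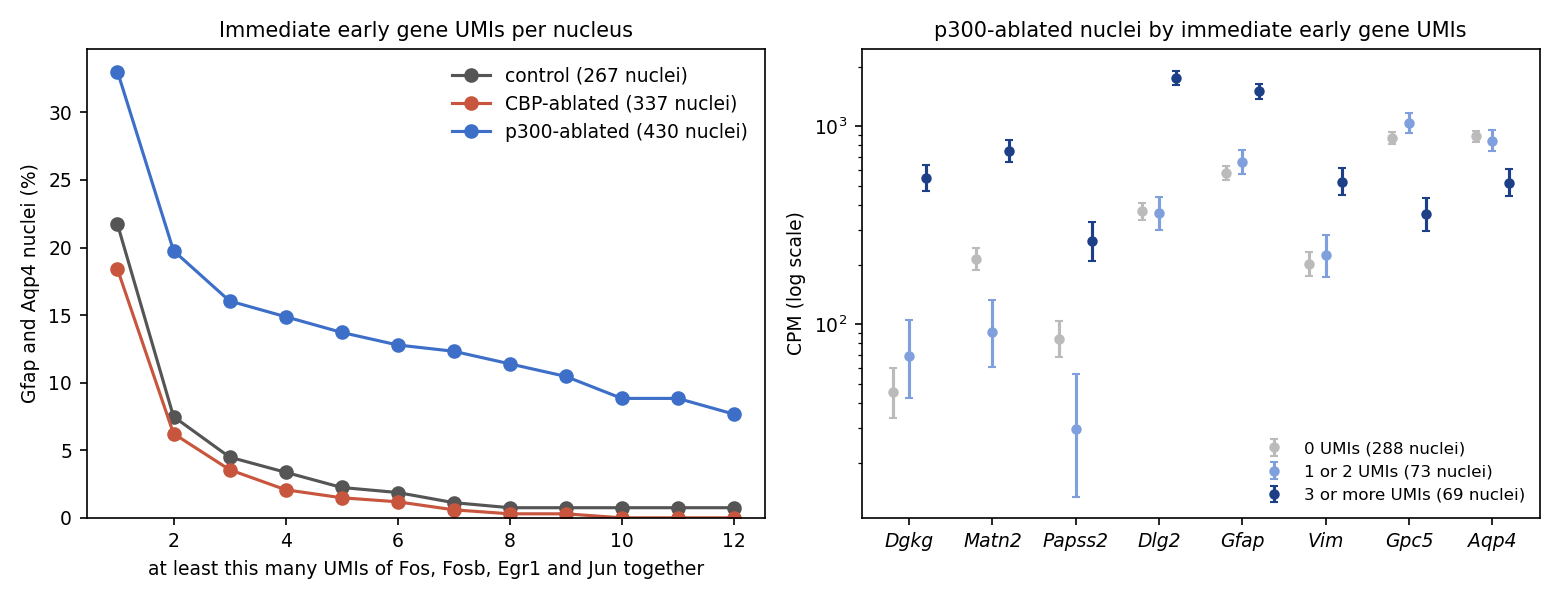
Left, share of members (percent) with at least the given number of UMIs of Fos, Fosb, Egr1 and Jun together, by library. Right, level (CPM, log axis) of 8 genes in p300-ablated members with 0, 1 or 2, and at least 3 such UMIs, with exact 95% Poisson intervals. Dgkg, Matn2, Papss2, Dlg2, Gfap and Vim are highest and Gpc5 and Aqp4 lowest in the 69 nuclei with at least 3. Gfap and Aqp4 chose the members by their sum, so their levels are a description only.

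Gpc5 led the lower end with 1923 CPM in control and 808 CPM in p300-ablated members (−1.25, −1.35 to −1.15). Its ratio was −1.37 in all other nuclei and −0.01 (−0.07 to 0.05) in OPC nuclei. All other nuclei included 958 of the astrocyte class in control, with 6243 CPM of Gpc5, and 16 in p300-ablated cultures. The part of that class in the ratio of −1.37 was not tested. Sparcl1, a secreted protein of astrocytes, was at −1.35 (−1.64 to −1.06), Ddit4l at −1.39, the adhesion protein Adam23 at −1.35, the glutamate receptor Grm3 at −1.45, Trpm3 at −1.15, Adcy2 at −1.10, Skap2 at −1.22 and Ntm, an adhesion protein of the IgLON family, at −0.79. Rimbp2, a scaffold of presynaptic release sites, was lower in members (−1.37, −1.92 to −0.82) and higher in all other nuclei (0.25, 0.10 to 0.40).

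**Figure D5:**
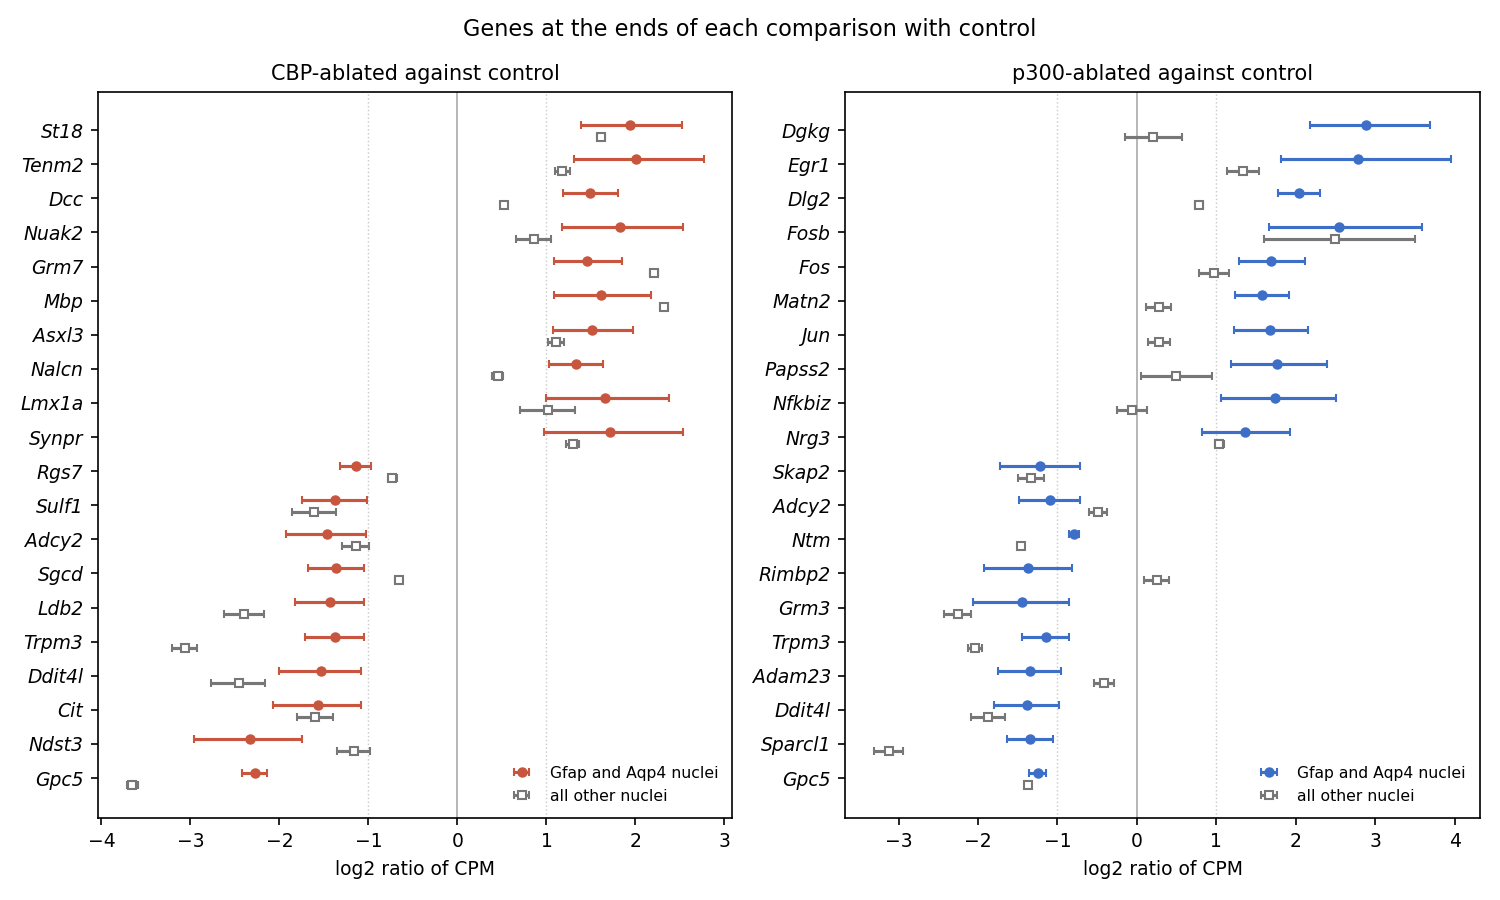
Log2 ratio of CPM (horizontal axis) for the 10 genes at each end of the CBP-ablated (left) and p300-ablated (right) comparison with control, in members (filled) and in all other nuclei (open), with 95% counting intervals. Gpc5 is lower in both groups of nuclei on both sides, while Dgkg and Nfkbiz on the right are higher in members and near 0 in all other nuclei.

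Among the lists, motile cilium genes had the highest median apart from lists of other cell types. Of the 11 cilium genes ranked, Ak9 was past 2-fold at 1.04 and the median was 0.46, against 0.09 for all 4378 genes. The share of all 4378 genes past 2-fold was 1.19%, and it stands behind each list count in this paragraph. Cfap44 had a ratio of 1.06 (0.70 to 1.43) in members, 0.79 in all other nuclei and −0.04 (−0.37 to 0.31) in radial glia-like nuclei. S1pr3, a sphingosine receptor, was past 2-fold in the reactive list at 1.29 (list median 0.23 over 6 genes) and Vim was at 0.64. The remaining lists of glial genes without a gene of the rule had medians of −0.20 to 0.17, with Gpc5 the one gene of 15 astrocyte genes past 2-fold.

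Of transcripts of other cell types, 8 OPC genes summed to 1292, 1433 and 2064 CPM in members, with all 8 detected and Lhfpl3 the most abundant. All other nuclei held 7816, 8413 and 11978 CPM of them. The 9 neuronal genes summed to 92.1, 175 and 157 CPM in members (801, 875 and 885 CPM in all other nuclei), mostly Adarb2, with Tubb3 at 0 in every library. The 10 vascular and meningeal genes summed to 30.3, 35.1 and 26.6 CPM in members, with Pdgfrb the most abundant and Cldn5 and Lum at 0, and 9 cell cycle genes, which the rule limited, to 19.1, 29.7 and 34.3 CPM. The part of RNA from these cells in the members' values was not tested.

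The 2 ablated libraries were set directly against each other among 4905 genes, of which 24 (0.489%) were at least 2-fold higher and 79 (1.61%) at least 2-fold lower in CBP-ablated members, 103 (2.10%) in all, with a median of −0.01. Mbp and Bcas1 led the upper end, and Fosb, Dgkg, Matn2, Fos and Egr1 the lower end.

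Mbp had 124 CPM in CBP-ablated and 19.5 CPM in p300-ablated members (2.66, 2.11 to 3.25) and Bcas1, a protein of myelinating oligodendrocytes, 323 and 101 CPM (1.68, 1.42 to 1.94). As in the comparison with control, the ratios in all other nuclei were also above 0, at 2.02 and 1.25. In CBP-ablated members 68.2% of the Bcas1 UMIs lay in 10 nuclei, and 1 nucleus held 89 of 424. St18, Tmem181a, Ccn2, Frmd4a, Tenm2, Grm7, Tek and Ephb1 followed at 1.24 to 1.61. For Frmd4a 10 nuclei held 68.6% of the CBP-ablated UMIs and 1 nucleus 295 of 793, and its ratio of 1.24 was 0 after thinning to 1500 UMIs.

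Fosb had 0 UMIs in the 337 CBP-ablated members and 122 in the p300-ablated members, so that it was at least 31.6-fold lower when the count of 0 is taken as 3 UMIs over the group. Against the 11 UMIs of control members it was at least 5.40-fold lower, but those UMIs came from 3 nuclei, 1 of which held 8. Dgkg was at −3.29 (−4.04 to −2.61), Fos at −2.67 (−3.16 to −2.22), Egr1 at −2.71 (−3.62 to −1.91), Vegfa at −2.01 (−2.66 to −1.41) and Dlg2, Jun and Rbfox1 at −1.92, −1.95 and −1.76. Alk, a receptor tyrosine kinase, was at −2.37 (−3.20 to −1.62), but 10 nuclei held 68.1% of its p300-ablated UMIs and the ratio was 0.32 after thinning. Matn2 had 38.9 CPM in CBP-ablated and 290 CPM in p300-ablated members (−2.90, −3.34 to −2.48), whereas all other nuclei had 60.5 and 43.1 CPM (0.49, 0.34 to 0.64).

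The 4 markers of the class outside the rule ranged from −0.54 for Mgat5 to 0.12 for Ggta1 in this comparison. Of 16 astrocyte genes, Gpc5 and Ntsr2 were past 2-fold, both lower in CBP-ablated members at −1.03 and −1.08. Of all 4905 genes 2.10% were past 2-fold, with 1.61% lower in CBP-ablated members. Of 6 reactive genes Cd109 was past 2-fold at −1.13, and the medians of the lists of glial genes without a gene of the rule ran from −0.59 to 0.10.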

How the data were processed

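Nuclei of pooled cultures were sorted and loaded on the 10x Genomics Chromium system (16000 nuclei per sample). Cell Ranger 3.1, the genome GRCm38 (mm10), FastQC 0.11.9 and Seurat 2.3.4 are named in the submitters' processing notes. The authors deposited raw UMI counts of 30559 genes per nucleus, over introns and exons and not normalized, and every deposited nucleus was kept, the smallest with 500 UMIs. The 3 libraries hold 16312170, 12748336 and 18876682 UMIs.

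For each class and library, UMIs were added up and scaled to their total (CPM). Members and lists were chosen with earlier results of these data known. Levels have exact Poisson intervals, shares Clopper-Pearson intervals, and log2 ratios between libraries conditional binomial intervals, all at 95% and for counting error only. Ratios against other classes had 1 CPM added to each side. OPC nuclei held at least 3 UMIs of Pdgfra and Cspg4 and microglia at least 4 of Csf1r, Inpp5d and Fyb, within all limits of the rule and with fewer than 3 of Gfap and Aqp4. Named genes were the markers and rule genes, the 15 leading genes (4 clone-named genes were passed over), 10 genes at each end of a comparison ranked by the interval bound nearest 0, list members, Crebbp and Ep300. The ends left out rule, mitochondrial, Xist, Tsix, Y-linked and clone-named genes. The immediate early grouping and the genes shown in it were picked with their values in view. A few of the genes so chosen are left out here.

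Scrublet (scanpy 1.11.5) scores were called at 0.8% for each 1000 nuclei, and the 17, 10 and 24 members called (control, CBP-ablated, p300-ablated) were kept. Free RNA was not removed, and OPC nuclei held 10.1, 19.1 and 8.50 CPM of Gfap. Coordinates came from GENCODE M21 (30410 genes found) and promoters from RefSeq (3 of 4 immediate early genes matched). Python 3.11.15, numpy 2.4.6, scipy 1.17.1, pandas 2.3.3 and matplotlib 3.10.9 were used, and the ratio step was tested on simulated counts. Alternatives changed the Gfap and Aqp4 limit, the exclusion limits, depth, doublets, scaling, the UMI filter and free RNA (5% subtracted).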

Additional observations from a re-analysis of the deposited data

Results flagged for a closer look

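For 2 named genes the ratios lay on opposite sides of 0 in members and in all other nuclei, with both intervals apart from 0. Rimbp2 had a log2 ratio of −1.37 (−1.92 to −0.82) in p300-ablated against control members, on 50 and 68 UMIs, and 0.25 (0.10 to 0.40) in all other nuclei. Matn2 had −2.90 (−3.34 to −2.48) in CBP-ablated against p300-ablated members, on 51 and 490 UMIs, and 0.49 (0.34 to 0.64) in all other nuclei. With 1 library a condition the difference was not tested for either gene, and the intervals cover counting error only.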

How the results depend on the processing

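No paired analysis was possible because each condition has 1 library, and no library could be left out for the same reason. The members stayed a larger share of both ablated libraries than of the control under all 7 alternatives, with a difference of 3.79 to 5.83 points for CBP and 1.41 to 4.56 points for p300. In the order control, CBP-ablated and p300-ablated, the share was 8.11%, 13.8% and 12.7% with at least 2 UMIs of Gfap and Aqp4, 2.91%, 7.79% and 5.38% with at least 5 (p300 difference 2.47 points), 2.96%, 6.74% and 4.37% after thinning to 1500 UMIs (differences 3.79 and 1.41 points), and 4.28%, 8.49% and 7.44% with at most 1 UMI of each exclusion sum (CBP difference 4.21 points). Outside the astrocyte class the control share was 6.80%, with differences of 4.41 and 2.48 points.

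The number of genes past 2-fold depended on the UMI filter. For CBP against control, p300 against control and CBP against p300 it was 87, 52 and 103 at 100 UMIs, 670, 606 and 667 at 20 UMIs, 12, 9 and 28 at 300 UMIs, and 5745, 3905 and 5409 with no filter, where most genes have few UMIs. After thinning, with fewer nuclei and UMIs, it was 12, 9 and 17. It was 80 for p300 against control with a limit of 2 UMIs and 57 for CBP against control with a limit of 5. Of 768 single log2 ratios recomputed, 674 stayed within their interval, and 4 of those past 2-fold lost their side of 0: Frmd4a (0) and Alk (0.32) in CBP-ablated against p300-ablated members after thinning, for which the cause was not tested, and Fos (−0.22) and Jun (−0.13) in p300-ablated against control members without the nuclei of at least 3 immediate early UMIs, a removal that uses these genes and was chosen after seeing the data. That removal left 31 genes past 2-fold for p300 against control. Of 440 list medians recomputed 415 stayed within the median interval of their genes. Thinning to 1500 UMIs changed the most single ratios: of 77, 31 left their interval and 2 more lost their side of 0. Of 71 recomputed shares, share differences and counts of genes past 2-fold, 34 left the interval or range set for them and 37 stayed.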
